A study of Mus musculus with 3 samples.

Results

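The 10 genes described here make, conjugate, carry or sense bile acids: Cyp7a1, Cyp8b1, Cyp27a1, Cyp7b1, Baat, Slc10a1, Slco1b2, Abcb11, Nr1h4 and Nr0b2. They were named by symbol, and all 10 were found among the 23860 genes listed in either of the count tables. Their UMIs (unique molecular identifiers, one per captured RNA molecule) were read in hepatocytes, taken as cells with no Ptprc UMI in which Alb, Apoa1, Apoa2, Ttr and Fabp1, here called the gate genes, held at least 5% of UMIs.

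Liver cells of mice were captured with the BD Rhapsody system as 2 libraries. The WT-only library is assigned by elimination to the sample whose title reads MCD. In the paper MCD stands for a methionine-choline deficient diet. The header of this library names APAP0h, and its values name no diet. From the methods it is taken here as wild-type C57BL/6J mice on normal chow (NCD) for 16 weeks, but the labels do not settle the diet. The HFHC pool mixes wild-type and Chi3l1-/- (Chil1-/-) mice fed the high-fat, high-cholesterol diet for 16 weeks, and no genotype is used for any cell here. Each group is 1 library, so there was no test, and diet, genotype, capture and library cannot be told apart. The age of the mice and the number pooled are not given in the sources used here.

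The methods describe a preparation of non-parenchymal cells from which hepatocytes were spun out, whereas the labels speak of parenchymal cells, so the hepatocytes are those that remained. After the filter on cells, 569 of 23346 cells of the WT-only library (548863 UMIs) and 507 of 19625 cells of the HFHC pool (571778 UMIs) met the gate. Of 8 further hepatocyte genes, among them Cps1, at least 2 UMIs were found in 99.8% of these cells in both libraries. So they were in 45.5% and 74.8% of all kept cells and in 92.4% and 92.9% of cholangiocytes, so that this check is not specific to hepatocytes. At least 2 UMIs of markers of another single cell type were found in 5.80% and 6.51% of the gated cells. The summed level of 4 neutrophil markers nonetheless differed, at 176.7 CPM in the WT-only library and 22.7 CPM in the pool, and that of 5 cholangiocyte markers the other way, at 21.9 and 119 CPM. The gated cells were shallow, with medians of 630 and 758 UMIs, and 336 and 271 of them lay just inside the limit, at 5 to 6%. Just outside it, at 4 to 5%, lay 713 and 777 cells. The gate therefore takes the top of a continuous range, and a second set, added after the values were seen, holds the 5724 and 10330 hepatocytes with gate genes at 1 to 5% of UMIs that the markers did not assign to another cell type. These are called low-share hepatocytes, a name that rests on the gate genes. They held 3969681 and 13922858 UMIs, and 99.4% and 99.7% of them had at least 2 UMIs of the further hepatocyte genes. In them neutrophil markers summed to 242.3 and 19.0 CPM and 5 markers of Kupffer cells, which hold Cyp27a1 themselves, to 205.8 and 91.9 CPM, while cholangiocyte markers summed to 15.9 and 38.4 CPM. The part of these cells in the ratios below was not tested. Malat1, a nuclear RNA, was at 188 and 275 CPM in gated and at 375 and 212 CPM in low-share hepatocytes. In all kept cells it was at 1802 and 1267 CPM. Whether the cells of either set were whole was not tested. The libraries share 756 cell barcodes.

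Bile acids are made from cholesterol in hepatocytes, either by the classical route that Cyp7a1 opens or by the alternative route that Cyp27a1 opens and Cyp7b1 continues. They are joined to taurine, exported into bile and taken up again from portal blood, so that the same molecules pass the liver many times. Returning bile acids bind the nuclear receptor FXR, whose target SHP represses the synthesis genes. In the normal lobule, synthesis by the classical route is known to lie mostly around the central vein.

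The genes lie on 8 chromosomes of GRCm38 in the GENCODE annotation. Cyp7a1 lies at chr4:6265612-6275633, Baat at chr4:49489422-49506557 and Nr0b2 at chr4:133553376-133556536. Cyp27a1 lies at chr1:74713574-74737892, Abcb11 at chr2:69238282-69342616, Cyp7b1 at chr3:18071950-18243338 and Slco1b2 at chr6:141629518-141686646. Cyp8b1 lies at chr9:121914356-121916305, Nr1h4 at chr10:89454234-89533585 and Slc10a1 at chr12:80953183-80968705. Within Abcb11 the annotation places an antisense gene and a processed pseudogene on the opposite strand, and within Cyp7b1 a small nuclear RNA on the same strand. Whether the release used for counting holds the same overlaps was not checked. How the counting used strand is not given in the sources used here, so that reads of Abcb11 and of its antisense gene may not be separated.

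Promoter sequence was at hand for 7 of the 10 genes (RefSeq, GRCm38.p6), and the 4 that hold a match to one of the motifs searched are shown. Each line gives the 250 bases before the gene's start, 5′ to 3′ on the strand of the gene, with motif matches in capitals. In Abcb11 (chr2:69342617-69342866, minus strand) and Slco1b2 (chr6:141629268-141629517, plus strand) the capitals mark AGGNCANTGNCCT, an inverted repeat of the kind that FXR binds with RXR. In Nr0b2 (chr4:133553126-133553375, plus strand) they mark TCAAGG, the core of sites for LRH-1, the product of Nr5a2. In Cyp8b1 (chr9:121916306-121916555, minus strand) they mark CAAAGTCCA, a form of the HNF4 site.
Abcb11: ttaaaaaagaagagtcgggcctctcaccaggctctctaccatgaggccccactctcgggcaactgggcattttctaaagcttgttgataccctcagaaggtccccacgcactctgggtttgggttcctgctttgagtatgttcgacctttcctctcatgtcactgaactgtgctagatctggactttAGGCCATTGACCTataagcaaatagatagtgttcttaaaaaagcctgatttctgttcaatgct
Slco1b2: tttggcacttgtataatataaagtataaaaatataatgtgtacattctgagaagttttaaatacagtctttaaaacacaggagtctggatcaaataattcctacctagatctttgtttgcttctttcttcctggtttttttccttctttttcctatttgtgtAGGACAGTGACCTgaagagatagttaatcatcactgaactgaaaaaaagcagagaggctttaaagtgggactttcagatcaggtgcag
Nr0b2: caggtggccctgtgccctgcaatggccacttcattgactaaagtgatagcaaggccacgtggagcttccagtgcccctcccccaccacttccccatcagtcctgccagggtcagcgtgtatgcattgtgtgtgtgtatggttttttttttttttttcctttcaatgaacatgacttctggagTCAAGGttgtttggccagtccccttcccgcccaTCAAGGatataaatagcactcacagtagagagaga
Cyp8b1: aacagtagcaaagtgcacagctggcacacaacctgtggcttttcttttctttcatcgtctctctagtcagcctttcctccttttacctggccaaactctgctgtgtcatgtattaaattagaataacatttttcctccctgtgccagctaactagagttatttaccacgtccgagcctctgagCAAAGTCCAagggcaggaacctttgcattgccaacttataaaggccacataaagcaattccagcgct
The letters of the motifs were chosen with these sequences in view, and both strands were searched. The inverted repeat was in 28 of the 32851 promoters of the same length (0.0852%), and among the 7 members with sequence in Abcb11 and Slco1b2. TCAAGG was in 12.5% of promoters and CAAAGTCCA in 0.384%. The motifs do not overlap in the sequences shown. A match describes the letters only.

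In gated hepatocytes, levels are UMIs summed over cells and scaled to the total of the cells as CPM, with exact Poisson 95% intervals that cover counting error only. Capture is from the 3′ end and levels are not scaled by length. How well each gene was captured was not measured, so that values are used to compare libraries and cells, not genes. A level from 3 UMIs would be 5.47 CPM in the WT-only library and 5.25 CPM in the pool.

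Of the synthesis genes, Cyp7a1, the rate-limiting enzyme of the classical route, was at 1.82 CPM (0.0461 to 10.2) in the WT-only library, from 1 UMI, and at 29.7 CPM (17.3 to 47.6) in the pool, from 17 UMIs. Cyp8b1, the sterol 12-alpha-hydroxylase that makes cholic acid, was at 109 CPM (83.4 to 141) and at 70.0 CPM (50.0 to 95.3). Cyp27a1, the mitochondrial sterol 27-hydroxylase, was at 117 CPM (89.8 to 149) and at 66.5 CPM (47.0 to 91.2). Cyp7a1 was thus near the counting limit in the WT-only library, while Cyp8b1 and Cyp27a1 were lower in the pool, with intervals that overlap at their ends. Cyp7b1, the oxysterol 7-alpha-hydroxylase, was at 72.9 CPM (52.1 to 99.2) in the WT-only library and at 43.7 CPM (28.3 to 64.5) in the pool, with intervals that overlap. Baat, which joins bile acids to taurine, was at 366 CPM (317 to 420.5) and at 349.8 CPM (303 to 402), about level.

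Of the transporters, Slc10a1, which encodes the sodium-dependent uptake carrier NTCP, was at 359 CPM (311 to 413) in the WT-only library and at 629.6 CPM (566 to 698) in the pool. Slco1b2, a sodium-independent uptake carrier, was at 186 CPM (152 to 226) and at 275 CPM (233 to 321). Abcb11, the bile salt export pump, was at 117 CPM (89.8 to 149) and at 59.5 CPM (41.2 to 83.1). In these gated cells Slc10a1 and Slco1b2 were higher and Abcb11 lower in the pool, with intervals that do not overlap for each of the 3 genes. Slco1a1, an uptake carrier outside the 10, was lower in the pool, at 174.9 and 90.9 CPM, and the ratios of Slc10a1 and Slco1b2 turned to -0.21 and -0.40 (log2, pool relative to WT-only) in low-share hepatocytes. Of the regulators, Nr1h4, which encodes FXR, was at 61.9 CPM (42.9 to 86.6) and at 90.9 CPM (67.9 to 119), with overlapping intervals. Nr0b2, which encodes SHP, was at 43.7 CPM (28.0 to 65.1) in the WT-only library and at 121 CPM (93.9 to 153) in the pool, with no overlap.

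**Figure D1:**
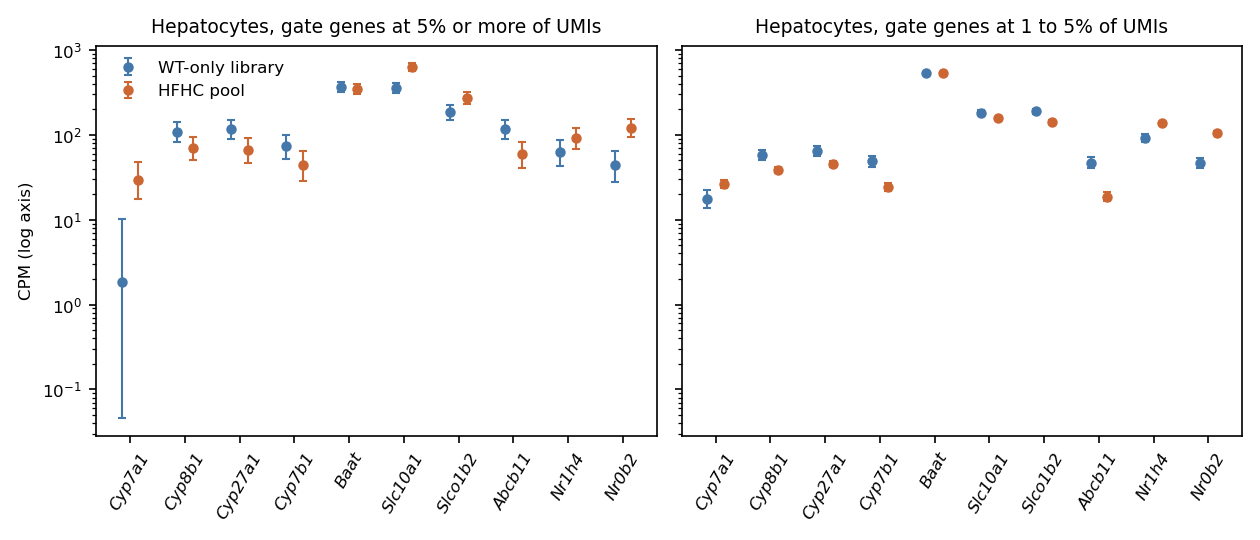
CPM (log axis) of the 10 genes in gated hepatocytes on the left and in low-share hepatocytes on the right, with exact Poisson 95% intervals as bars and 1 point per library. Nr0b2 lies higher and Abcb11 and Cyp7b1 lie lower in the HFHC pool on both sides, while Slc10a1 and Slco1b2 change order between the sides.

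The comparison of libraries took genes with at least 100 UMIs in both together, and a 2-fold ratio was used as a mark of size. In gated hepatocytes 5 of the 10 genes had enough UMIs (Cyp8b1, Cyp27a1, Baat, Slc10a1 and Slco1b2), and 0 of the 5 passed 2-fold. Over all 1670 genes with enough UMIs, 5.63% were at least 2-fold higher in the pool and 4.85% at least 2-fold lower. Log2 ratios, always of the HFHC pool relative to the WT-only library, ran from -0.80 for Cyp27a1 to 0.81 for Slc10a1, with a median of -0.07, against 0.12 over all genes. At a minimum of 20 UMIs, 9 genes entered and 1 passed 2-fold, Nr0b2 at 1.43 (95% CI 0.78 to 2.20), where 9.81% of 5321 genes were at least 2-fold higher and 5.98% lower. The ratio of Cyp7a1 was 3.11 (1.35 to 9.41), but rests on 1 UMI.

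In low-share hepatocytes all 10 genes had enough UMIs. Nr0b2 was at 46.6 CPM in the WT-only library and at 104 CPM in the pool, a log2 ratio of 1.15 (0.94 to 1.39), and was the 1 gene at least 2-fold higher. Abcb11 was at 46.9 and 18.7 CPM, a log2 ratio of -1.33 (-1.60 to -1.05), and was the 1 gene at least 2-fold lower. The background was 5.65% of 8662 genes higher and 6.31% lower, so that 1 gene of 10 in each direction is little above it. Cyp7b1, at 48.6 and 24.5 CPM, lay just inside the limit, with a log2 ratio of -0.99 (-1.25 to -0.73). Cyp8b1 was at 58.2 and 38.7 CPM and Cyp27a1 at 64.7 and 44.9 CPM, with log2 ratios of -0.59 and -0.53. Nr1h4 was higher in the pool, at 91.4 and 137 CPM (log2 ratio 0.58, 0.42 to 0.75). Baat was level at 532 and 529 CPM, with a log2 ratio of -0.01 (-0.08 to 0.06). Cyp7a1 was at 17.6 and 26.4 CPM, with a log2 ratio of 0.56 (0.21 to 0.97). The median over the 10 genes was -0.31, against 0.07 over all genes.

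The ratios of the uptake carriers and Cyp7a1 differed with the share of UMIs in the gate genes, by which the cells were also chosen. In gated cells Apoa1 was at 5194 and 8005 CPM and Fabp1 at 6929 and 10658 CPM. Ttr, at 7619 and 6107 CPM, and Apoa2, at 3688 and 3221.5 CPM, went the other way. Equal shares therefore need not hold like cells in the 2 libraries, and the cause of the difference was not tested. Slc10a1 had a log2 ratio between the libraries of -0.71 in cells with gate genes at 1 to 2%, of -0.25 at 2 to 3% and of 0.30 at 3 to 5%, before the 0.81 of gated cells. Slco1b2 went from -0.93 through -0.58 and 0.23 to 0.56 over the same classes. Cyp7a1 went from -0.26 (-0.94 to 0.60) through 0.03 to 1.73 (1.12 to 2.55), ahead of the sparse gated value. Slc10a1 and Slco1b2 thus changed direction over the classes, whereas Cyp7a1 was higher in the pool from 3% upwards and its interval at 1 to 2% holds 0. Nr0b2 was higher in the pool in all 4 classes, from 0.95 at 1 to 2% to 1.43 in gated cells, and Nr1h4 from 0.29 at 1 to 2% to 0.76 at 3 to 5%, with a gated value of 0.54 whose interval (-0.10 to 1.22) holds 0. Abcb11 was lower in all 4, from -0.79 at 1 to 2% to -1.55 at 3 to 5%. Cyp7b1 had ratios between -1.32 and -0.45, with a gated interval of -1.52 to 0.02 that holds 0. Cyp27a1 had ratios between -0.80 and -0.47, with an interval at 1 to 2% of -0.96 to 0.05 that holds 0. The Cyp8b1 ratio was -0.08 at 1 to 2%, with an interval of -0.59 to 0.52 that holds 0, and between -0.76 and -0.63 in the other classes. Baat stayed between -0.09 and 0.09. In gated cells Nr0b2, Nr1h4, Abcb11, Cyp7b1 and Cyp7a1 had fewer than 100 UMIs in both libraries together. So did Abcb11 and Cyp7a1 at 1 to 2%.

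**Figure D2:**
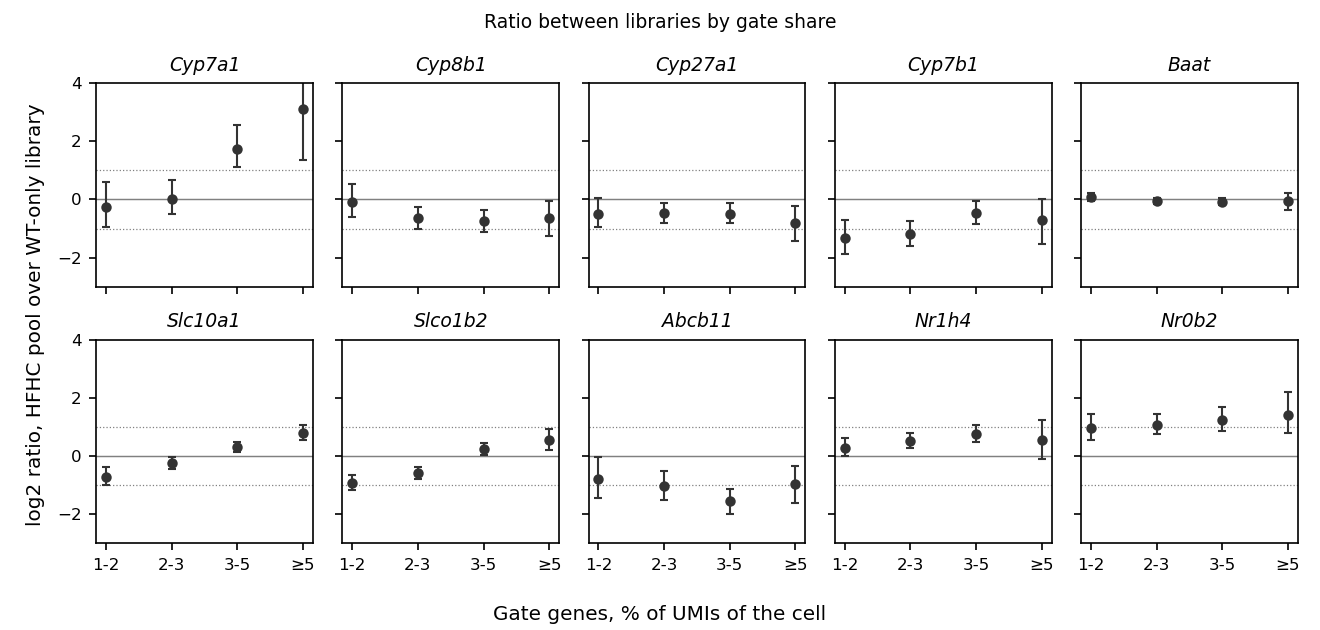
Log2 ratio between the libraries, pool relative to WT-only (y axis), for each gene by the share of UMIs in the 5 gate genes (x axis, %), with exact 95% counting intervals as bars and dotted lines at 2-fold. The interval of Cyp7a1 at 5% or more runs beyond the axis to 9.41. Slc10a1 and Slco1b2 cross 0 from left to right, whereas all 4 points of Nr0b2 lie above 0 and all 4 of Abcb11 below it.

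The libraries differed in more than these genes. In gated hepatocytes the pericentral gene Cyp2e1 was at 133 CPM in the WT-only library and at 1623 CPM in the pool, and the periportal gene Cyp2f2 at 1479 and 599.9 CPM. Not all periportal markers were lower in the pool: Aldh1b1 was at 21.9 and 143 CPM and Hsd17b6 at 107 and 247 CPM, and Hsd17b13, Sds and Ctsc were also higher there, with overlapping intervals. The median mitochondrial share of gated cells was 3.91% in the WT-only library, against 0.556% in the pool. In low-share hepatocytes the gap of Cyp2e1 was smaller, at 809 and 1498 CPM, and Glul, also pericentral, was at 1347.5 and 1449 CPM. Cyp1a2, another pericentral gene, was lower in the pool there, at 259 and 104 CPM. Pck1, a periportal marker and a gene of gluconeogenesis that fasting raises, was at 3591 and 817 CPM in low-share hepatocytes. Nr1d1, a clock gene with a strong daily rhythm, was at 21.7 and 186 CPM, and Tsc22d3, which glucocorticoids raise, at 169 and 35.0 CPM. Other clock genes differed in both directions, with Dbp at 2.77 and 18.4 CPM, Tef at 12.3 and 32.1 CPM, Hlf at 184 and 242 CPM, Per1 at 14.1 and 4.52 CPM, Arntl at 38.8 and 29.5 CPM and Per2 at 8.06 and 7.04 CPM. Fkbp5, which glucocorticoids also raise, was at 25.2 and 17.0 CPM. These genes were named after their values were seen, and their part in the ratios of the members was not tested.

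To compare like zones, cells with at least 10 UMIs of 24 zone markers were ranked by the log2 ratio of pericentral to periportal UMIs and split into terciles. No member was among the markers. In gated hepatocytes this left 276 cells of the WT-only library and 250 of the pool, of which 170 and 69 lay within 0.5 of a limit between terciles. The pericentral tercile had a median score of -2.46 in the WT-only library and of 2.7 in the pool. In it Cyp2f2 was at 1475.5 and 116 CPM and Cyp2e1 at 541 and 7557 CPM. In the WT-only library the name thus marks only the least periportal of these cells. In each library only Slc10a1 and Baat reached 100 UMIs in the outer terciles. In the WT-only library 0 of these 2 passed 2-fold, where 0.661% of 454 genes were at least 2-fold higher in the pericentral tercile and 0% in the periportal tercile. In the pool Baat passed it, lower by 1.03 on the log2 scale in the pericentral tercile (-1.80 to -0.40), and Slc10a1 was at 0.88 (0.46 to 1.30). Baat no longer passed with no upper limit on genes, at -0.63, with no filter on cells, at -0.55, or without cells carrying 2 or more UMIs of another type, at -0.86. In the pool 7.45% of 443 genes were at least 2-fold higher in the pericentral tercile and 7.45% in the periportal tercile. In the pool Slco1b2 had 67 UMIs in the pericentral and 24 in the periportal tercile, Cyp27a1 had 16 and 2, and Cyp7a1 12 and 0.

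In low-share hepatocytes, with 2746 and 6494 cells ranked, the members were mostly pericentral in the pool. There 7 of the 10 were at least 2-fold higher in the pericentral tercile, where 5.06% of 6562 genes were, and 0 were at least 2-fold higher in the periportal tercile, where 1.77% were. Cyp7a1 had the largest ratio among the members, with 271 UMIs in the pericentral and 11 in the periportal tercile, a log2 ratio of 5.03 (4.29 to 6.17). It was followed by Slco1b2 at 2.73, Cyp7b1 at 2.29, Cyp27a1 at 1.99, Slc10a1 at 1.50, Cyp8b1 at 1.38 and Abcb11 at 1.13. Nr0b2 went the other way, at -0.73 (-0.96 to -0.51), as did Baat at -0.31 (-0.41 to -0.22). Nr1h4 was level at -0.08 (-0.26 to 0.10).

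In low-share hepatocytes of the WT-only library 8 of the 10 genes had enough UMIs. Cyp27a1 at 1.29 (0.79 to 1.82) and Slco1b2 at 1.92 (1.63 to 2.24) were at least 2-fold higher in the pericentral tercile, where 2.68% of 2907 genes were. Nr0b2 was at least 2-fold higher in the periportal tercile, at -1.28 (-2.08 to -0.63), where 1.51% were. Cyp7a1 had 45 UMIs in the pericentral and 1 in the periportal tercile, too few to be counted. Slc10a1 was at 0.14 (-0.16 to 0.44) and Cyp8b1 at 0.15 (-0.42 to 0.69), with intervals that hold 0 and end below the values of the pool. Abcb11 was at -0.48 (-1.14 to 0.11), opposite in sign to the pool. The zone markers include cytochrome P450 genes, and without these the count of genes past 2-fold was 7 of 10 in the pool and 1 of 7 in the WT-only library, Slco1b2. With that score 4% of 6470 genes were at least 2-fold higher in the pericentral tercile and 1.24% in the periportal tercile of the pool, and 2.18% and 1.04% of 2801 genes in the WT-only library. There Cyp27a1 at 0.94 and Nr0b2 at -0.99 lay just inside the limit.

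Because the terciles cover different score ranges in the libraries, the limits were also set on both together. They were scores of -3.0 and -0.51 in low-share hepatocytes and of -3.81 and -2.39 in gated ones. Pck1 is among the periportal markers and differed between the libraries, so that the same score need not mean the same place in the lobule. Values that follow are of low-share hepatocytes unless gated cells are named. From the periportal through the middle to the pericentral tercile, Cyp7a1 was at 3.34, 24.6 and 66.0 CPM in the WT-only library and at 2.21, 10.4 and 78.1 CPM in the pool. Slco1b2 was at 107, 168 and 521 CPM and at 44.0, 98.7 and 310.0 CPM. Both genes rose towards the central vein in each library. Cyp8b1 was at 59.5, 63.8 and 62.4 CPM in the WT-only library, but at 25.5, 32.2 and 66.3 CPM in the pool. Cyp7b1 was at 48.1, 49.3 and 42.2 CPM, but at 10.8, 15.6 and 50.9 CPM in the pool. Slc10a1 was at 191, 169.5 and 237 CPM, and at 104, 117 and 283 CPM in the pool. For these 3 genes the libraries lay close together in the pericentral tercile of low-share hepatocytes, and the pool was lower in the periportal tercile. Gated periportal cells (115 and 58) held few UMIs at limits set the same way. Cyp8b1 was there at 131 and 76.0 CPM, from 31 and 11 UMIs, with a log2 ratio of -0.71 (-1.93 to 0.24) that holds 0. Cyp7b1 was at 80.4 and 6.91 CPM, from 19 and 1 UMIs (-2.615, -8.92 to -0.89). Slc10a1 was there higher in the pool, at 423 and 622 CPM. The gated pericentral tercile (43 and 133 cells) starts at a score of -2.39, where periportal marker UMIs still exceed pericentral ones. In it the libraries were not close for Slc10a1, at 309.7 and 805.8 CPM (log2 ratio 1.30, 0.61 to 2.25). Cyp8b1 was there at 165 and 88.3 CPM, from 8 and 16 UMIs, with a log2 ratio of -0.99 (-2.21 to 0.53).

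At the shared limits of low-share hepatocytes, the log2 ratio between the libraries in periportal cells was -2.14 (-2.76 to -1.57) for Cyp7b1, -1.23 (-1.66 to -0.79) for Cyp8b1 and -0.88 (-1.10 to -0.65) for Slc10a1. In pericentral cells it was 0.22 (-0.36 to 0.96), 0.05 (-0.43 to 0.65) and 0.25 (-0.01 to 0.53). Abcb11 was at 61.5, 37.7 and 44.0 CPM in the WT-only library and at 12.7, 17.9 and 27.2 CPM in the pool, with log2 ratios between the libraries of -2.26 (-2.82 to -1.75), -1.11 (-1.72 to -0.38) and -0.74 (-1.35 to 0.02), the last of which holds 0. Nr0b2 was at 64.9, 53.6 and 23.9 CPM and at 118, 119 and 78.4 CPM, higher in the pool in each. Nr1h4 was at 66.9, 114.5 and 117 CPM and at 145, 142 and 136 CPM, with a clear gap in the periportal tercile alone (log2 ratio 1.105, 0.81 to 1.44). Baat was at 593, 587 and 422 CPM and at 594.5, 569 and 486 CPM, which followed the same course in both libraries. Cyp27a1 was at 53.5, 52.2 and 130.2 CPM and at 24.6, 30.1 and 88.3 CPM. In gated periportal cells Baat was higher in the pool, at 334.5 and 532 CPM (log2 ratio 0.67, 0.20 to 1.14). Its intervals in the middle and pericentral gated terciles hold 0.

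**Figure D3:**
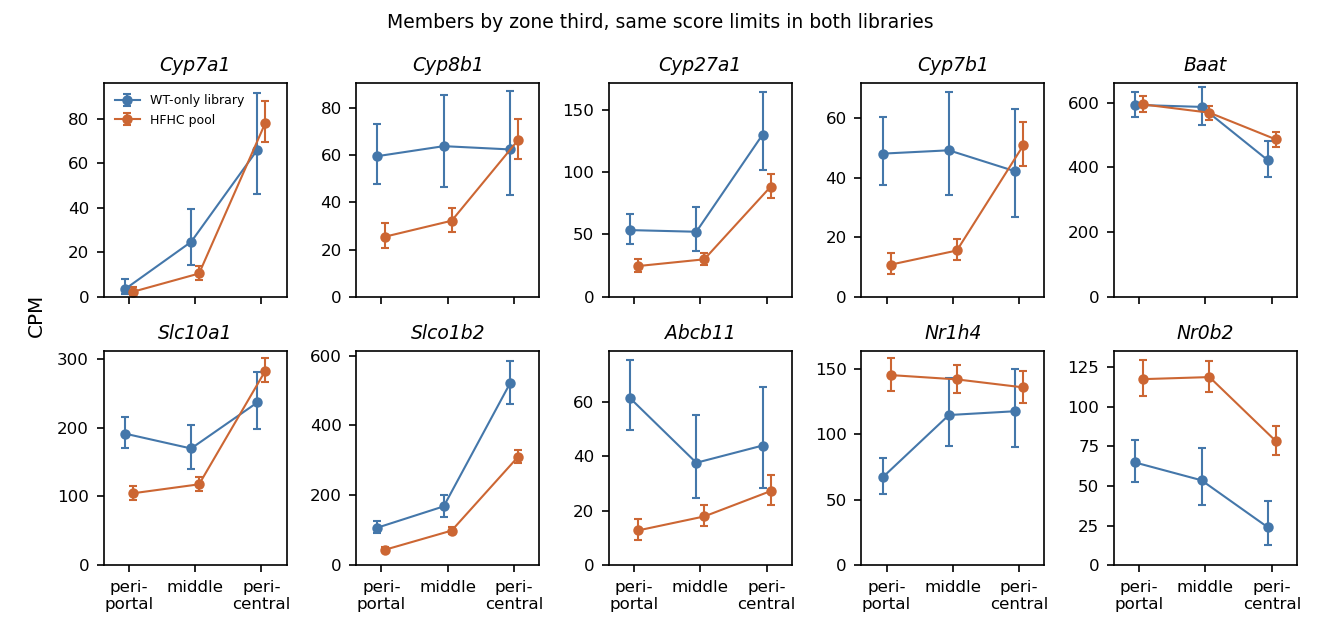
CPM (y axis, from 0) of each gene in low-share hepatocytes of the periportal, middle and pericentral tercile (x axis), with the same score limits in both libraries and exact Poisson 95% intervals as bars. Cyp7a1 and Slco1b2 rise towards the pericentral tercile in both libraries, and Cyp27a1 is highest in that tercile in both. Cyp8b1, Cyp7b1 and Slc10a1 rise in the HFHC pool. In the WT-only library Cyp8b1 and Cyp7b1 are nearly flat, while Slc10a1 is lowest in the middle and highest in the pericentral tercile.

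Genes whose course over the zones was most like that of a member were sought over 10 bins of the zone score in each library, 20 points in all, which share their libraries and depth. In gated hepatocytes only Baat had enough UMIs, and its course was most like that of C3 (Pearson's r 0.77), Rps28 (0.66) and Rps16 (0.58), among 355 genes. In low-share hepatocytes, among 2964 genes, Slco1b2 was most like Cyp2c68 (0.97), Phyh (0.97) and Mup17 (0.96), and Baat most like Sdr9c7 (0.94), Gls2 (0.93) and Asl (0.93). The 3 genes most like Slc10a1 were Lamp2 (0.95), C4bp (0.94) and Apoh (0.93). For Cyp27a1 they were C4bp (0.94), Itm2b (0.94) and Bsg (0.94), for Cyp8b1 B2m (0.92), Apoa1 (0.91) and Cxcl12 (0.91), and those given for Nr1h4 are Gbe1 (0.84) and Gfm1 (0.84). Apoa1 is a gate gene, and Gls2 is a zone marker, so that these likenesses share values with the choice or the order of the cells.

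Of a wider list of 53 bile acid genes, 52 were in both tables and 19 had enough UMIs in gated hepatocytes. Their median log2 ratio between the libraries was 0.14, against 0.12 over all genes, with 2 at least 2-fold higher and 1 at least 2-fold lower, where 5.63% and 4.85% of all genes were. The highest ratios were those of the detoxification genes Sult1d1 (1.13) and Cyp3a11 (1.09), and of Acox2 (0.64) and Slc27a2 (0.59), which act in the shortening and activation of the side chain. The lowest were those of Rxra (-1.24), the partner of FXR, Slco1a1 (-0.93), an uptake carrier, Hnf4a (-0.49), which drives many hepatocyte genes, and Cyp2c70 (-0.28), which makes muricholic acids. In low-share hepatocytes the log2 ratios were 0.87 for Sult1d1, -0.03 for Cyp3a11, 1.26 for Acox2 and 0.06 for Slc27a2. They were -0.95 for Rxra, -1.37 for Slco1a1, -0.23 for Hnf4a and -0.71 for Cyp2c70.

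By role, the 11 synthesis genes with enough UMIs in gated hepatocytes had a median log2 ratio of 0.22, with 0 past 2-fold. Transporters had 2 such genes, regulators 3 and detoxification genes 3. In low-share hepatocytes 39 of the 53 had enough UMIs, with 5 at least 2-fold higher, 1 at least 2-fold lower and a median of 0.06, where 5.65% of all genes were higher and 6.31% lower and the median was 0.07. Between zones in low-share hepatocytes, 9 of the 35 genes of this list with enough UMIs were at least 2-fold higher in the pericentral tercile of the pool and 3 of 24 in that of the WT-only library, with 0 in the periportal tercile of either. The shares over all genes were the 5.06% and 2.68% given above for the pericentral tercile and 1.77% and 1.51% for the periportal tercile. Cyp3a11 was the 1 gene of this list that passed 2-fold in both libraries in low-share hepatocytes, at 5.28 in the pool and 2.29 in the WT-only library, higher in the pericentral tercile.

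Other cell types were named by their own marker genes. In them the members with enough UMIs, other than Cyp27a1, were mostly near the level that RNA of low-share hepatocytes would give. With gated hepatocytes as reference, Nr1h4 in endothelial cells was at 5.07 and 3.76 times the level and Slc10a1 at 0.996 and 0.739 times. Free RNA keeps its genes in 1 ratio in every cell, so that each member was set against the gate genes, and this ratio against that in gated hepatocytes of the same library. Gated cells were chosen for these same genes, which held 6.13% and 6.74% of their UMIs, against 2.83% and 2.51% in low-share hepatocytes. This choice lowers the gated reference. Baat in T cells, for example, was at 2.48 and 3.86 times the gated background but at 0.79 and 0.95 times the low-share one. A gene counted as above this background at 4-fold with at least 10 UMIs in both libraries. In Kupffer cells, the resident macrophages of the liver (3205 and 524 cells), 2 of the 10 genes did, Cyp27a1 and Cyp7a1, and 8 had enough UMIs. Of all 8926 genes with enough UMIs there and at least 1 UMI in gated hepatocytes, 94.5% did. Cyp27a1 was at 48.7 CPM, from 791 UMIs, in the WT-only library and at 61.3 CPM, from 260 UMIs, in the pool, which was 27.7 and 53.8 times the background. Cyp7a1, with 11 UMIs in each library, rests on the 1 UMI of gated WT-only hepatocytes. Set against low-share hepatocytes, it was at 1.17 and 2.14 times the background and no longer counted, whereas Cyp27a1 was at 23.0 and 29.7 times. With that reference 91.1% of all genes counted.

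Monocytes (1209 and 1177 cells) held Cyp27a1 at 68.1 CPM (318 UMIs) and 80.5 CPM (651 UMIs), 54.3 and 56.6 times the background from low-share hepatocytes. Cyp8b1 in monocytes was at 16.3 CPM (76 UMIs) and 3.46 CPM (28 UMIs), at 16.6 and 4.19 times the background from gated hepatocytes, so that it counted there, but at 14.4 and 2.82 times that from low-share hepatocytes, where it did not. Over all genes 96.5% and 94.2% counted in monocytes with these references. In B cells Cyp27a1 was at 12.8 and 15.97 CPM, 4.25 and 4.64 times the background from low-share hepatocytes, where 87.8% of all genes counted, and 94.9% against gated hepatocytes. Members with enough UMIs numbered 5 in T cells, 6 in neutrophils and 9 in endothelial cells, of which 0 were above the low-share background in both libraries, where 90.3%, 71.6% and 60.2% of all genes counted. In natural killer cells 1 member and in cholangiocytes 2 had enough UMIs, too few to read a share from, and these did not count either. Baat had enough UMIs in both libraries in 7 of the 9 cell types, Slc10a1 and Slco1b2 in 6 and Abcb11 in endothelial cells alone, and these 4 genes did not count in any of them with either reference. Where UMIs were fewer, as for all members in stellate cells, no call could be made.

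Nr1h4 was found in stellate cells at 142 CPM (82.5 to 227), from 17 UMIs in 34 cells of the WT-only library, and at 78.6 CPM (25.5 to 183), from 5 UMIs in 13 cells of the pool. These were 45.0 and 8.75 times the low-share background, but the pool was under 10 UMIs. Nr0b2 in cholangiocytes was at 69.5 CPM (23 UMIs, 79 cells) and 59.0 CPM (23 UMIs, 70 cells), 5.24 and 0.948 times that background. Nr1h4 in cholangiocytes, from 12 and 34 UMIs, was above the gated background at 4.45 and 4.31 times, as 78.7% of all genes were, and at 1.39 and 1.07 times the low-share one.

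**Figure D4:**
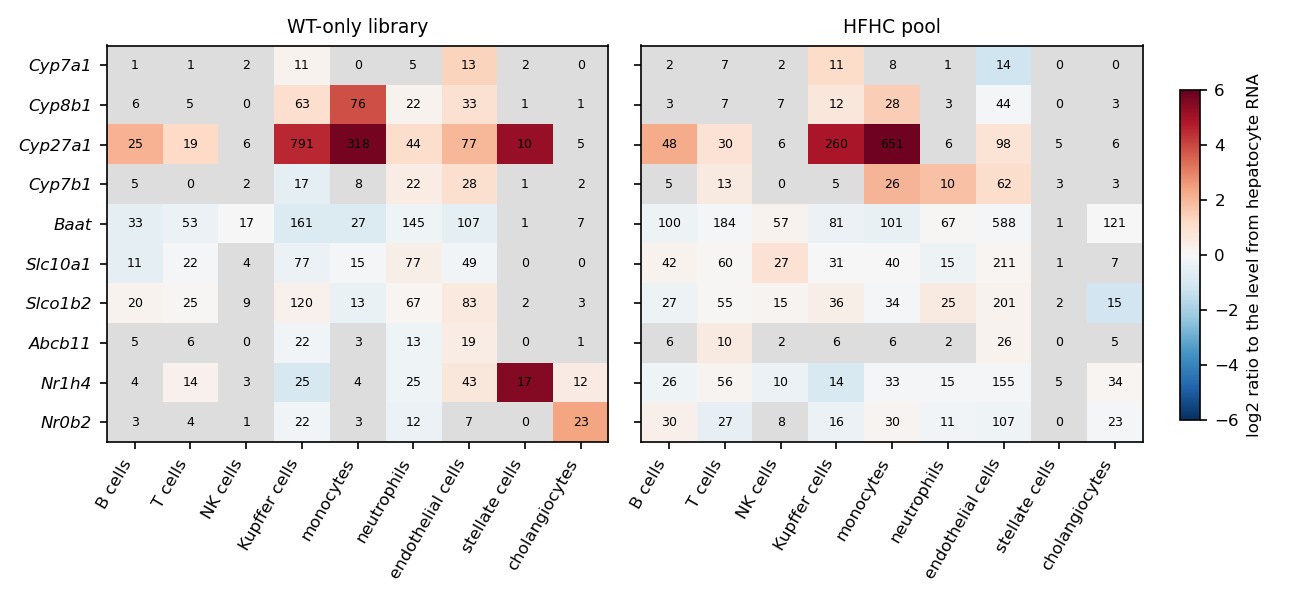
Members (rows) in 9 cell types (columns) of each library, with the UMIs as numbers and, where there were at least 10, the log2 ratio to the level given by hepatocyte RNA as colour, with low-share hepatocytes as reference and grey for fewer UMIs. Cyp27a1 in Kupffer cells and monocytes stands out in both libraries, with 791 and 318 UMIs in the WT-only library and 260 and 651 in the HFHC pool.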

How the data were processed

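The deposited count tables hold whole-number counts of UMIs per cell and gene, which the authors made with the BD Rhapsody WTA Analysis Pipeline (version 1.10.1, per the file headers) on GRCm38 with GENCODE vM 19 annotation. They held 53720863 UMIs in 30734 cells (WT-only library) and 71981673 in 21601 cells (HFHC pool). The aligner's settings are not given in the sources used here, and the tag library was not analysed here.

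Cells with 200 to 4000 genes and at most 25% mitochondrial UMIs were kept, as in the methods. Levels are CPM of the summed UMIs. A ratio, given as log2 with 1 UMI added to both sides, was read where 100 or more UMIs were found in the compared cells, and has an exact conditional 95% interval for counting error alone. Cells are not replicates, so that 1 library per group allowed no test. Zone scores are log2 ratios of 12 pericentral to 12 periportal marker UMIs, with 1 added to each. A cell type needed 3 UMIs of its markers and over 2 times those of any other type. Doublets were called with Scrublet (scanpy 1.11.5) and taken out only as an alternative. The ratios were tested on simulated data, which checks the calculation only.

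The members and lists were chosen with earlier results of these data known. Named genes are the members, the other bile acid genes with the 4 highest and 4 lowest ratios between libraries or past 2-fold between zones in both, and the 3 genes most like each member that had 200 UMIs in both libraries. Others were named after their values were seen. A gene among those most like Nr1h4 is not reported here. Alternatives changed the filter, gate, minimum, scaling, depth and zone score. Python 3.11.15, numpy 2.4.6, scipy 1.17.1 and pandas 2.3.3 were used.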

Additional observations from a re-analysis of the deposited data

Results flagged for a closer look

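Slc10a1 and Baat in gated hepatocytes, and Abcb11 and Nr1h4 in low-share hepatocytes, had zone ratios of opposite sign in the 2 libraries, among members with at least 100 UMIs in the outer terciles of both. With 1 library on each side the difference was not tested, and the terciles cover different score ranges. The gated pericentral tercile had a median score of -2.46 in the WT-only library and of 2.7 in the pool. In that of the WT-only library Cyp2f2, a periportal gene, was at 1475.5 CPM and Cyp2e1 at 541 CPM. In gated hepatocytes the log2 ratio of the pericentral over the periportal tercile was -0.33 in the WT-only library and 0.88 in the HFHC pool for Slc10a1. With the same score limits in both libraries these were -0.37 and 0.37, and without cytochrome P450 genes in the score -0.23 and 0.40. For Baat it was 0.21 and -1.03. In low-share hepatocytes, which hold more UMIs, neither gene had opposite signs, with 0.14 and 1.50 for Slc10a1 and -0.34 and -0.31 for Baat. There it was -0.48 and 1.13 for Abcb11, and 0.83 and -0.08 for Nr1h4. The counting intervals of Slc10a1 and Baat in gated WT-only hepatocytes, of Abcb11 in low-share WT-only hepatocytes and of Nr1h4 in those of the pool hold 0.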

How the results depend on the processing

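No paired analysis was possible because each group is 1 library. A gate of 20% left 0 cells in each library and gave no value. Scrublet called 0 gated hepatocytes, so that its removal changed nothing by construction. The count of members past 2-fold between libraries, 0 of 5, was 1 of 8 with no upper limit on genes and 1 of 8 with no filter on cells, 1 of 9 at a minimum of 20 UMIs, and 2 of 10 in low-share hepatocytes at either minimum. The median of members, -0.07, was 0.59 over 3 genes with a mitochondrial limit of 10%, 0.73 over 3 without cells carrying 2 or more UMIs of another type and 0.45 over 2 with cells thinned to 1000 UMIs. Each of these settings tested fewer genes. Thinning moved Slc10a1 to 0.43 and Baat to 0.48, and low-share hepatocytes turned Slc10a1 to -0.21 and Slco1b2 to -0.40, whose cause was not tested. The median of the other bile acid genes, 0.14 in the main setting, lay between 0.01 and 0.28 in the others. Abcd3, the gene at the main median, had a counting interval of -0.18 to 0.46. An interval of the median itself was not computed.
Members past 2-fold between zones in the WT-only library, 0 of 2, were 1 of 8 at a minimum of 20 UMIs, 3 of 8 in low-share hepatocytes and 1 of 7 there without cytochrome P450 genes in the score. In the HFHC pool the 1 of 2 was Baat, lower pericentrally. With no upper limit on genes and with no filter on cells it was 1 of 3, but another gene, Slco1b2, higher pericentrally (2.19 and 1.89), and Baat was lost at -0.63 and -0.55. The 1 of 2 became 2 of 2 with the mitochondrial limit of 10%, 2 of 6 at 20 UMIs, 2 of 3 with terciles set on both libraries, 0 of 2 without cells carrying UMIs of another type, and 7 of 10 in low-share hepatocytes with either score. With Cyp2e1 and Cyp2f2 alone, 8 and 29 cells could be ranked and 0 members had enough UMIs. The 2 members above background in Kupffer cells became 1, Cyp27a1, with no upper limit on genes, with Kupffer cells under 1% of gate genes, and with B and T cells or low-share hepatocytes as reference. Low-share hepatocytes, their combinations and the score without cytochrome P450 genes were chosen after seeing the data. In gated cells, which are few, 5 members did not reach 100 UMIs.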
